A study of Mus musculus with 12 samples.

Results

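CD11b+ and CD103+ cells sorted from the same nephritic kidneys were compared with each other. The comparison holds 6 of the 12 libraries of the study, 3 of CD11b+ and 3 of CD103+ cells, and all genes with a deposited log2 value of at least 0, which is at least 1 CPM (reads scaled to the size of the library), in at least 3 of those 6 libraries. By this rule 12720 of 26121 genes were tested. Differences are given throughout as CD11b+ minus CD103+ on the deposited log2 CPM scale, so that a positive value is higher in CD11b+ cells.

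All mice were wild-type males aged 8 to 12 weeks. Nephritis was induced in 3 of them with nephrotoxic antiserum, 7 days before the kidneys were taken, and 3 healthy mice without antiserum gave the other 6 libraries, which serve here only to show where the subset difference in nephritis departs from that in healthy kidneys. Both subsets came from every mouse, after collagenase digestion of the kidney, enrichment on CD45 beads and flow sorting, and total RNA was amplified with a SMARTer kit and sequenced as 50-base single reads. The labels name the sorted cells only by CD11b or CD103 and call them dendritic cells; no other gate is given. In a sorted bulk sample fewer cells of a type and less RNA per cell cannot be told apart, and this holds for every gene below.

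Nephrotoxic antiserum is an antibody against glomerular structures. Bound in the kidney, it activates complement and Fc receptors and draws leukocytes in, which makes it a model of antibody-driven crescentic glomerulonephritis. Conventional dendritic cells fall into type 1 cells, which depend on IRF8 and BATF3, carry CD103 in most tissues and take up dead cells for presentation to CD8 T cells, and type 2 cells, which carry CD11b and SIRPA, use IRF4 and mainly present to CD4 T cells. In the kidney CD11b is also carried by monocytes, macrophages and neutrophils.

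The 6 libraries held 20189747 to 24342295 reads for CD103+ cells and 19856950 to 26556814 for CD11b+ cells, so that 3 reads equal 0.112 to 0.159 CPM. Both sort markers followed the labels. Itgae, which encodes CD103, was at 1229, 993 and 881 CPM in the 3 CD103+ libraries and at 5.05, 4.77 and 4.65 CPM in the 3 CD11b+ libraries. Itgam, which encodes CD11b and shares 68.7% of its exon length with another gene, was at 7.32, 6.66 and 6.68 and at 301, 346 and 299 CPM. The marker sets of other cells were not level between the sorts. The summed level of 23 macrophage genes was 923 to 1063 CPM in CD103+ and 5618 to 6299 CPM in CD11b+ libraries. That of the 16 neutrophil genes found was 16.9 to 25.2 and 396 to 553 CPM. For the 16 B and plasma cell genes found it was 763 to 1494 and 1524 to 2604 CPM. Summed T cell genes (671 to 806 and 772 to 888 CPM), NK cell genes (310.4 to 377 and 358 to 378 CPM) and tubule genes (4195 to 4997 and 4355 to 6998 CPM) lay closer together. Ly6g and Marco, which mark neutrophils and a class of macrophages, the mast cell protease genes Mcpt4 and Tpsb2, and the podocyte gene Nphs1 had no read in any of the 6 libraries. The part that such cells play in the differences below was not tested.

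**Figure D1:**
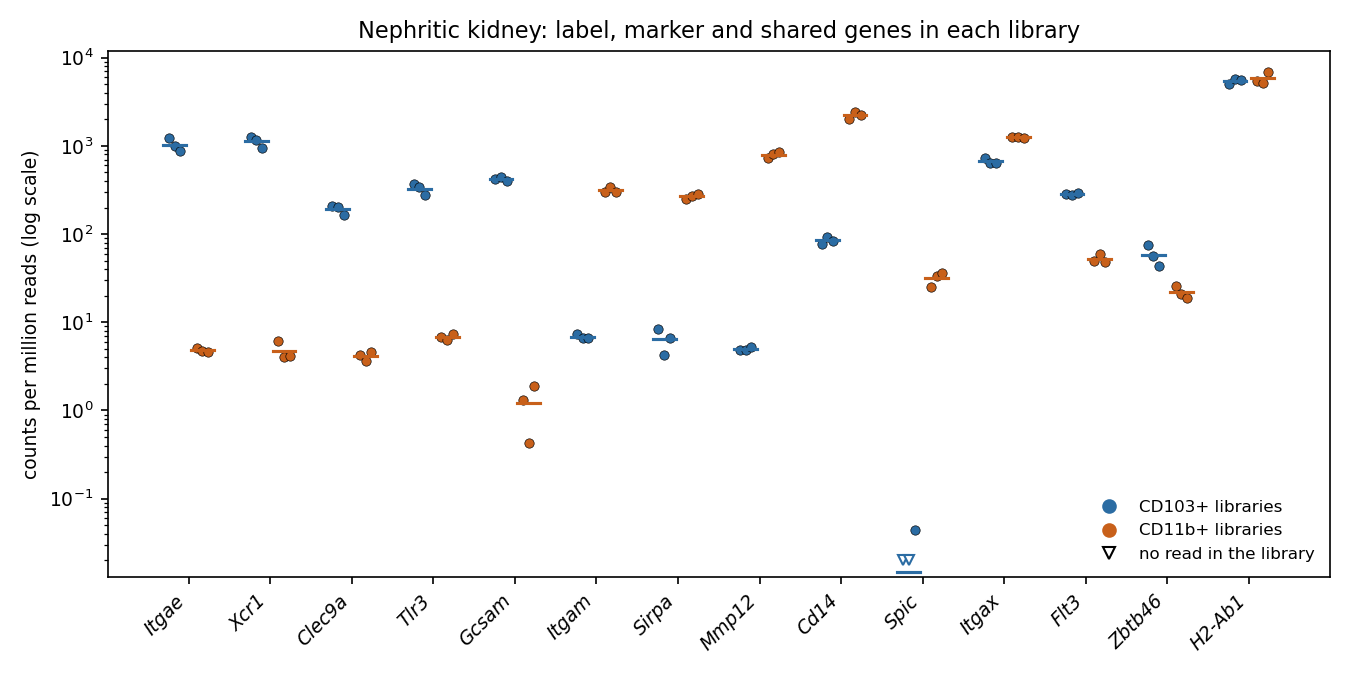
Level in CPM (log axis) of 14 label and marker genes in each of the 3 CD103+ and 3 CD11b+ nephritic libraries, with the group means as lines and open triangles for libraries without a read. Itgae, Xcr1, Clec9a, Tlr3 and Gcsam lie higher in every CD103+ library, Itgam, Sirpa, Mmp12, Cd14 and Spic higher in every CD11b+ library, and the values of H2-Ab1 overlap. Of all tested genes 45.9% had groups that did not overlap.

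Of the 5 genes taken to mark the comparison, 3 belong to the CD11b+ side. Mmp12 (macrophage metalloelastase, an elastin-cleaving protease; chr9:7344381-7369499, plus strand, GRCm38) was at 4.90, 4.89 and 5.19 CPM in CD103+ and at 731, 810.2 and 852 CPM in CD11b+ libraries. The lowest CD11b+ library was over 100 times the highest CD103+ library, and the log2 difference was 7.31 ± 0.10 (SE, n = 3 and 3; limma, adjusted p = 8.98e-13). Cd14, the co-receptor that hands lipopolysaccharide to TLR4, was at 77.8, 92.5 and 83.8 CPM in CD103+ and at 2014, 2443 and 2266 CPM in CD11b+ libraries, a log2 difference of 4.72 ± 0.11 (limma, adjusted p = 3.44e-11). Spic, the ETS family factor that red pulp macrophages of the spleen need for iron recycling (chr10:88674772-88685015, minus strand), had no read in CD103+ libraries 1 and 2 and 1 in library 3, against 25, 33.2 and 36 CPM in the CD11b+ libraries. Over the groups this was 1 read against 2210, a depth-scaled ratio of 1985 (95% counting interval 356 to 78433), which covers counting error only.

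The other 2 belong to the CD103+ side. Tlr3, which senses double-stranded RNA in endosomes (chr8:45395665-45411080, minus strand), was at 366, 341 and 274 CPM in CD103+ and at 6.75, 6.35 and 7.31 CPM in CD11b+ libraries (log2 difference -5.57 ± 0.13, limma, adjusted p = 3.44e-11). Gcsam, a germinal-centre signalling adaptor known from B cells (chr16:45610380-45622867, plus strand), was at 419.8, 439 and 399.7 and at 1.33, 0.426 and 1.91 CPM (log2 difference -8.64 ± 0.58, limma, adjusted p = 0.000292). Every CD103+ library exceeded every CD11b+ library for both genes, while the groups did not overlap, in either direction, for 45.9% of all tested genes. The CD11b+ values of Gcsam were the more scattered, with 0.426 CPM in library 2, without which the difference was -8.02.

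The promoters of 4 of these 5 genes are shown for the letters around the start sites of the genes on each side. Each is RefSeq sequence of GRCm38.p6 from 250 bases before to 50 bases after the annotated start, in the direction of the gene, with matches to 5 searched motifs in capitals. The motifs, searched on both strands, were an ETS core (GGAAGT), AP-1 (TGANTCA), an IRF motif (GAAANNGAA), C/EBP (TTGCNNAA) and a TATA box (TATAAA). RefSeq lists a further start for Mmp12, and the window shown is the one that holds the starts of 5 of its 7 GENCODE transcripts, while the other two start in the window not shown. For Spic and Tlr3 the RefSeq start lies inside the GENCODE gene coordinates given above, and the window does not hold the upstream end of those coordinates. Motif positions are counted from the RefSeq start.
Mmp12 (chr9:7347124-7347423, plus strand): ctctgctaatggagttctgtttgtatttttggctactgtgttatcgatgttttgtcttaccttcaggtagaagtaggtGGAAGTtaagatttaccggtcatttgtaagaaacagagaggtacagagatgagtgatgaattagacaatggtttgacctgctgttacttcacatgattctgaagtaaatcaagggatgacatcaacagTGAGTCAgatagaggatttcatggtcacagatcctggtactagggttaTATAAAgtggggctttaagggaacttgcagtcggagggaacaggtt
Spic (chr10:88682974-88683273, minus strand): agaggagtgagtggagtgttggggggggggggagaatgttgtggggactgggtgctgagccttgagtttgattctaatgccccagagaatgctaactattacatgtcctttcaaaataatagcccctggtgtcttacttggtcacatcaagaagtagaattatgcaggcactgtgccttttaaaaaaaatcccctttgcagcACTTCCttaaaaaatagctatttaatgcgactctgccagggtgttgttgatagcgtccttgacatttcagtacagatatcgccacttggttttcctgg
Tlr3 (chr8:45410331-45410630, minus strand): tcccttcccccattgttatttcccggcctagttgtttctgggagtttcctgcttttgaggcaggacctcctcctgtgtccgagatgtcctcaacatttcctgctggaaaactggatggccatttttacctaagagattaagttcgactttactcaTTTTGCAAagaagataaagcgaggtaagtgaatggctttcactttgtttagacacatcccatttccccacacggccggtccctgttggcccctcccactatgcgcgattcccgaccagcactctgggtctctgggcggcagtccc
Gcsam (chr16:45610190-45610489, plus strand): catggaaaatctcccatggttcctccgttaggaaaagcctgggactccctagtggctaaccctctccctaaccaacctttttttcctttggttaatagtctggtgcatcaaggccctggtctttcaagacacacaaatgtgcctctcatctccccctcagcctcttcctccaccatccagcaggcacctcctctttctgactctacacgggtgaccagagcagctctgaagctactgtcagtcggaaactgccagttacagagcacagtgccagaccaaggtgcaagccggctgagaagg
The Mmp12 window holds an ETS core at -172, an AP-1 match at -44 and a TATA match at 5 bases past the start. The Spic window holds an ETS core at -48, the Tlr3 window a C/EBP match at -95, and the Gcsam window none of the 5, and no window shown holds the IRF letters. Among all 32851 promoter windows, 23.8% hold the ETS core, 7.81% the AP-1 letters, 8.56% the IRF letters, 10.8% the C/EBP letters and 13.6% the TATA letters, so each match is a description of the letters and nothing more.

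Across all genes, 4073 of 12720 (32.0%) passed limma's test at an adjusted p of 0.05: 2110 (16.6%) that were more abundant in CD11b+ cells and 1963 (15.4%) that were less abundant. Of the former 1127 differed at least 2-fold, 288 at least 8-fold and 131 at least 32-fold, against 674, 100 and 30 of the latter. The 3 CD11b+ and 3 CD103+ values did not overlap for 5833 genes (45.9%). The even split depends on the scaling. When the libraries were scaled on 15 leukocyte genes in place of the deposited scaling, the median difference of all genes moved from 0.00 to -0.31, and 21.3% of the calls were higher in CD11b+ cells instead of 51.8%. These 15 genes were not all level between the subsets. With the deposited scaling Fcer1g and Ptprc, which are among them, were higher in CD11b+ cells, by 2.34 and 0.34 on the log2 scale. Itgb2, another of them, differed by 0.19 and overlapped between the groups. A subset difference in any of the 15 enters the shift, and how much of the shift comes from such differences was not tested. Differences below are read against that shift. It lowers every gene by the same amount, so only a gene called at a difference between 0 and 0.31 could reverse under it. Of the 331 called genes that the naming rule covers, 0 did, which is therefore no test of the scaling.

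The largest differences named different kinds of genes on each side. The 12 largest on the CD11b+ side held granulocyte and monocyte genes. Among them were Mmp8, the neutrophil collagenase, Cxcr2, the receptor of neutrophil-attracting chemokines, Fpr1, the formyl peptide receptor, and C5ar1, the receptor of complement fragment C5a. They also held the paired receptors Cd300e, Sirpb1b and Sirpb1c, the lectin Cd209b, the adhesion receptor Adgre4, the resistin-like Retnla, haptoglobin (Hp) and Spic. Of these Cxcr2 and Fpr1 had 0, Retnla and Spic 1 and Mmp8 2 reads in CD103+ cells, so that their place rests on the offset of 0.5 reads. With a pseudocount of 1 CPM their log2 differences were 3.94, 3.43, 4.22, 4.98 and 5.10, below the 7.06 of Mmp12 and the 7.26 of Mgl2. Hp, Cd300e, Cd209b, Sirpb1b and Sirpb1c then fell below both as well, at 5.82, 6.16, 5.13, 4.83 and 5.59. C5ar1 at 7.13 and Adgre4 at 7.36 stayed above Mmp12. Without 1 CD103+ library Cd209b ranged from 8.34 to 10.73 and Cd300e from 7.92 to 9.85. On the CD103+ side the 12 largest included the chemokine receptor Xcr1, the Langerhans cell lectin Cd207, the dead-cell receptor Clec9a, the adaptor Clnk, the phospholipase Plce1 and the membrane-sorting gene Snx22. Plce1 was at 22.4, 25.7 and 23.2 CPM in CD103+ and at 0.372, 0.128 and 0.562 CPM in CD11b+ libraries, a log2 difference of -6.19 ± 0.43 (limma, adjusted p = 6.77e-07). Cyp8b1, a sterol hydroxylase of bile acid synthesis in liver, was at 60.5, 51.7 and 39.2 CPM in CD103+ and at 0.213, 0.1704 and 0 CPM in CD11b+ libraries (log2 difference -9.03 ± 1.0, limma, adjusted p = 0.000957). This value was -7.86 without CD11b+ library 3, which had no read of Cyp8b1, -9.70 without CD11b+ library 1, and -5.50 with a pseudocount of 1 CPM.

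Ranked by the difference in CPM, mostly other genes led. The largest gains in CPM on the CD11b+ side were those of Cd74, Lyz2, Mgl2, Cd14, Ctss, Zfp36, Ptafr, Lilrb4a, Msn and Cybb. Lyz2, lysozyme, was at 539.6, 591 and 472 CPM in CD103+ and at 2982, 3385 and 3137 CPM in CD11b+ libraries (log2 difference 2.57 ± 0.11, limma, adjusted p = 5.05e-09). Mgl2, a galactose-binding lectin that marks type 2 cells of skin, was at 19, 10.8 and 19.8 and at 2456, 2473 and 2879.9 CPM, and Msn, which links membrane to actin, at 1603, 1404 and 1315 and at 2545, 2511 and 2426 CPM.

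On the CD103+ side the largest were Actb, Malat1, Cst3, Tmsb4x, Ppt1, Dnase1l3, Psap, Cd36, Naaa and Notch2. Actb was at 157066, 143515 and 166775 CPM in CD103+ and at 111006, 84189 and 78385 CPM in CD11b+ libraries. Actb and Cd74 together took 22.1% to 23.7% of the reads of a CD103+ library and 19.7% to 21.9% of those of a CD11b+ library. Cst3, the cathepsin inhibitor cystatin C, was at 7058, 7394 and 7472 and at 1164, 987 and 1214 CPM, and Ppt1, a lysosomal thioesterase, at 5266, 5009.7 and 4390.1 and at 405, 422 and 415 CPM. For Dnase1l3, a nuclease that degrades chromatin from dead cells, the values were 4022, 3388 and 2893 CPM in CD103+ and 491, 384 and 509 CPM in CD11b+ libraries (log2 difference -2.89 ± 0.14, limma, adjusted p = 2.43e-08). Both rankings took only genes that passed and whose groups did not overlap, so the absence of overlap was a condition here and not a result.

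**Figure D2:**
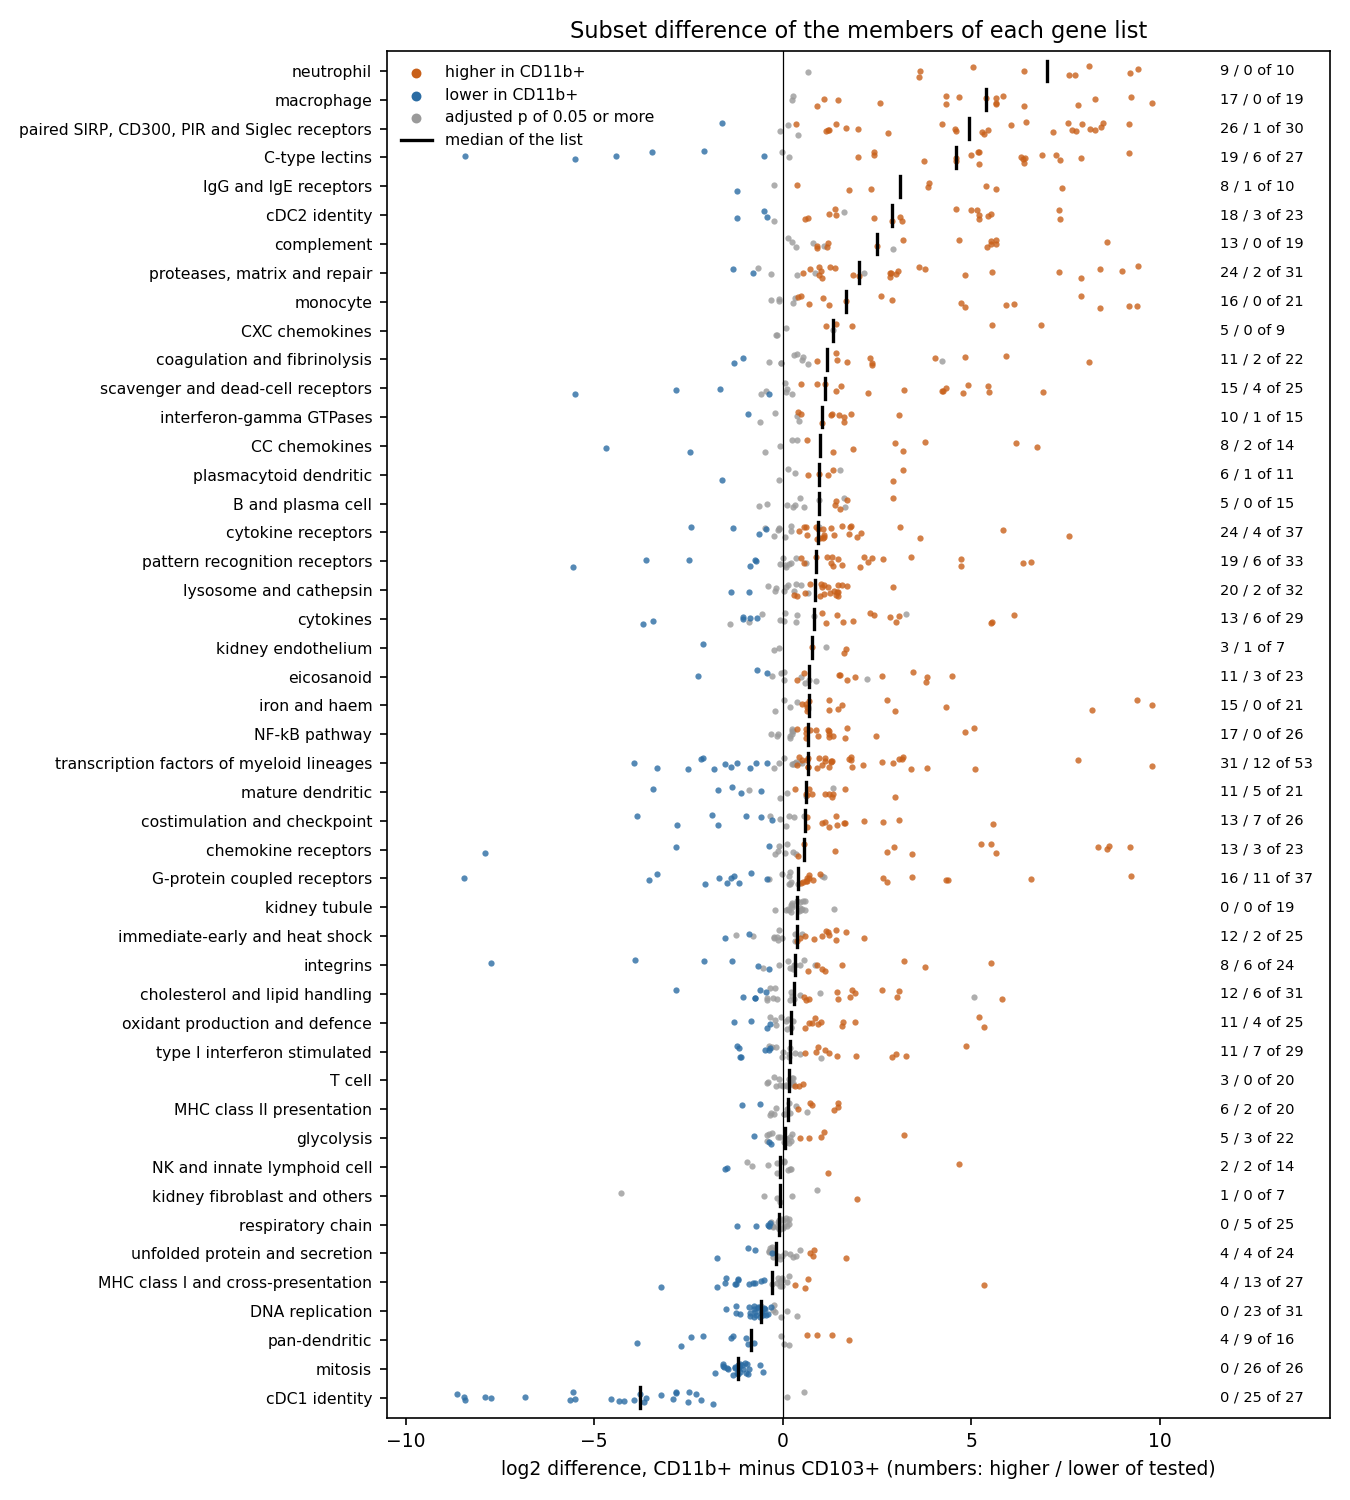
Log2 difference (CD11b+ minus CD103+) of every tested member of 47 gene lists, with points coloured by call, a black tick at the list's median and the numbers higher, lower and tested at the right. The macrophage, neutrophil, paired receptor and lectin lists lie furthest to the right, the type 1 dendritic list furthest to the left, and the mitosis list lies wholly below 0.

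Genes of the type 1 dendritic lineage were lower in CD11b+ cells with few exceptions. Of 27 tested, 25 were lower in CD11b+ cells and 0 higher (median -3.80, against 0.00 over all genes tested). Over all tested genes 32.0% passed, 16.6% as higher and 15.4% as lower in CD11b+ cells. The counts of this list and of every list below are to be read against these shares. The transcription factors of the lineage were part of this. Irf8, which type 1 cells need, was at 570.2, 625 and 584 CPM in CD103+ and at 38.8, 36.1 and 41.4 CPM in CD11b+ libraries (log2 difference -3.94 ± 0.10, limma, adjusted p = 5.27e-11). Batf3, its partner, was at 42.6, 45.2 and 44.6 and at 7.60, 7.41 and 7.98 CPM, and Id2, an inhibitor of E proteins, at 1834, 1914 and 1708 and at 318, 417 and 485 CPM. Wdfy4, which mice need for cross-presentation of cell-bound antigen, was at 946, 853 and 792 and at 92.7, 99 and 85.9 CPM. Itgb8 and Cxxc5 did not pass, with 95% intervals of 0.11 to 1.04 and -0.34 to 0.54, but Itgb8 was higher when libraries were paired by number (limma, adjusted p = 0.0463). Here and below the 95% intervals of log2 differences are per gene and not adjusted for the number of genes tested. A gene that did not pass can therefore have an interval that leaves out 0.

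Of 23 tested genes of the type 2 lineage 3 were lower in CD11b+ cells and 18 higher (median 2.90). Irf4 was at 6.06, 7.28 and 9.73 CPM in CD103+ and at 65.9, 72 and 63.8 CPM in CD11b+ libraries (log2 difference 3.15 ± 0.17, limma, adjusted p = 3.86e-08), and Sirpa, the receptor of CD47, at 8.33, 4.21 and 6.63 and at 253, 272 and 285 CPM. Notch2, whose signal type 2 cells of the spleen need, went the other way, with 2501, 2458 and 2829 CPM in CD103+ and 1278, 1113 and 983 CPM in CD11b+ libraries (log2 difference -1.21 ± 0.12, limma, adjusted p = 6.47e-06).

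Genes shared by all conventional dendritic cells were present in both sorts but not level. Of 16 tested, 9 were lower and 4 higher in CD11b+ cells (median -0.85). Flt3, the receptor of the growth factor of dendritic cells, was at 286, 277 and 289 CPM in CD103+ and at 49.8, 60.2 and 47.9 CPM in CD11b+ libraries (log2 difference -2.44 ± 0.11, limma, adjusted p = 6.84e-09). Zbtb46, a factor of the conventional lineage, was at 74.9, 56.2 and 44 and at 25.8, 21.1 and 19 CPM. Itgax, which encodes CD11c, was higher in CD11b+ cells, with 731, 634 and 646 CPM in CD103+ and 1263, 1266 and 1229 CPM in CD11b+ libraries. Ciita, the master switch of MHC class II genes, did not pass (95% interval -0.19 to 0.27).

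Of 53 tested transcription factors of myeloid lineages 31 were higher and 12 lower in CD11b+ cells (median 0.66). Zeb2, which represses type 1 fate, was at 6.81, 4.11 and 6.90 CPM in CD103+ and at 219.6, 202 and 176 CPM in CD11b+ libraries (log2 difference 5.10 ± 0.19, limma, adjusted p = 5.8e-09). Ets2, Prdm1, Bhlhe40, Klf13 and Pparg were also higher, by 3.20, 2.93, 1.80, 1.11 and 3.07 on the log2 scale. Mycl, a relative of Myc used by type 1 cells, was lower, with 37, 39.9 and 39.8 CPM in CD103+ and 3.72, 4.17 and 3.71 CPM in CD11b+ libraries. Maf, Etv6, Fli1 and Klf2 did not pass (95% intervals 0.01 to 0.52, -0.21 to 0.26, -0.49 to 0.02 and -0.45 to 0.25).

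Of 19 tested macrophage genes 17 were higher and 0 lower in CD11b+ cells (median 5.40). Csf1r, the receptor of macrophage colony-stimulating factor, was at 9.34, 7.39 and 7.20 CPM in CD103+ and at 418, 429 and 525 CPM in CD11b+ libraries (log2 difference 5.84 ± 0.13, limma, adjusted p = 3.44e-11). Adgre1, which encodes F4/80, was at 11.2, 11 and 11 and at 189.8, 283 and 209 CPM, Mrc1, the mannose receptor, at 3.23, 5.51 and 3.10 and at 347, 343 and 289 CPM, and Cx3cr1, the fractalkine receptor, at 6.71, 8.43 and 4.80 and at 304, 389 and 301 CPM. Maf and the phosphatidylserine receptor Timd4 did not pass. Of 21 tested monocyte genes 16 were higher and 0 lower (median 1.67), with the coagulation factor subunit F13a1 and fibronectin (Fn1) among the largest at 5.90 and 7.90 on the log2 scale. The monocyte receptor Ccr2 was at 1651, 1467 and 1218 CPM in CD103+ and at 2021, 2045 and 1604 CPM in CD11b+ libraries. Its groups overlapped and its adjusted p was 0.0441 in limma's test. The call was lost without CD103+ library 2 or 3 (adjusted p = 0.0974 and 0.183) and without CD11b+ library 1 or 2 (0.129 and 0.154). Plac8 and Itgal, which Ly6C-high monocytes also carry, did not pass (95% intervals -0.42 to 0.22 and 0.01 to 0.52).

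Granulocyte genes were higher in the CD11b+ sort at low levels. Of 10 tested, 9 were higher and 0 lower (median 7.00). Csf3r, the receptor of granulocyte colony-stimulating factor, was at 0.606, 0.520 and 0.175 CPM in CD103+ and at 70.9, 70.6 and 95.6 CPM in CD11b+ libraries (log2 difference 7.58 ± 0.41, limma, adjusted p = 6.13e-07). Cxcr2 had no read in CD103+ cells and 13.7, 10.9 and 19.6 CPM in CD11b+ libraries, at least 311-fold higher against a floor of 3 reads over the group. S100a8, an abundant calcium-binding protein of neutrophils, was at 0.202, 0 and 0.218 and at 19.4, 16.4 and 44.1 CPM, highest in CD11b+ library 3. Ly6g, a defining neutrophil marker in mice, had no read in any library.

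Lymphocyte genes were present in both sorts. Of 20 tested T cell genes 3 were higher and 0 lower (median 0.17), and these 3 (Tcf7, Lck and Cd247, which shares 60.3% of its exon length with another gene) lost the call under leukocyte scaling, where 0 were higher and 2 lower. Tcf7 lost it without CD103+ library 1 or CD11b+ library 1 (adjusted p = 0.0524 and 0.0634), and 0 to 2 of the 20 were higher when any 1 library was left out. Cd3e was at 19.4, 27.5 and 28.4 CPM in CD103+ and at 21.5, 21.5 and 32.9 CPM in CD11b+ libraries, and its groups overlapped. Of 14 tested NK and innate lymphoid genes 2 were higher and 2 lower (median -0.06). The receptor Klrk1 was lower, at 81.7, 70.0 and 82 CPM in CD103+ and 26.6, 28.3 and 26.1 CPM in CD11b+ libraries, while Il1rl1, the receptor of interleukin-33, was higher, at 2.57, 2.97 and 2.88 and 74.5, 86.1 and 58.4 CPM. Of 15 tested B and plasma cell genes 5 were higher and 0 lower (median 0.95), among them Cd79b with 6.26, 5.83 and 7.38 CPM in CD103+ and 21.8, 19.9 and 21.8 CPM in CD11b+ libraries. The share that passed was 15% for T cell, 28.6% for NK and innate lymphoid and 33.3% for B and plasma cell genes. Over all tested genes it was 32.0%, so none of these 3 lists passed clearly more often than that. Jchain ranged from 64.7 to 284 and from 214 to 765 CPM within the groups and did not pass, and Ighm was lower when libraries were paired by number (limma, adjusted p = 0.0089). Of 11 tested plasmacytoid genes 6 were higher and 1 lower, and Siglech, their defining lectin in mice, overlapped between the groups. None of 19 tubule genes passed limma's test (median 0.39), while 2 had an unadjusted p under 0.05, 0 passed with voom on the recovered reads, 2 (Atp1b1 and Fxyd2) passed as higher when libraries were paired by number and up to 3 when 1 library was left out. Slc34a1, the phosphate transporter of the proximal tubule, was at 250.2, 255 and 148 CPM in CD103+ and at 314, 255 and 353 CPM in CD11b+ libraries, and Umod, of the thick ascending limb, at 682, 352 and 559 and at 410.2, 383 and 1358 CPM.

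Receptors for the Fc part of antibodies, through which cells respond to deposited IgG, were mostly higher in CD11b+ cells. Of 10 tested, 8 were higher in CD11b+ cells and 1 lower (median 3.10). The activating receptor Fcgr3 was at 10.8, 9.83 and 10.52 CPM in CD103+ and at 479.6, 567 and 528 CPM in CD11b+ libraries (log2 difference 5.66 ± 0.10, limma, adjusted p = 6.44e-12). Fcgr1, the high-affinity receptor, was at 0.707, 1.30 and 1.05 and at 39.8, 44.1 and 44.3 CPM (log2 difference 5.40 ± 0.24), and Fcgr4, an activating receptor of IgG2 subclasses, at 3.13, 2.76 and 2.36 and at 34.9, 38.3 and 47.1 CPM (log2 difference 3.85 ± 0.18). The inhibitory receptor Fcgr2b, whose extracellular part is a near copy of that of Fcgr3 so that reads may be split between them, was higher as well, with 36.1, 39.8 and 29.5 CPM in CD103+ and 491, 544 and 500.2 CPM in CD11b+ libraries (log2 difference 3.87 ± 0.12, limma, adjusted p = 2.37e-10). The shared signalling chain Fcer1g and the kinase Syk, which acts behind it, were at 2.34 and 1.76 on the log2 scale. The Fc receptor-like gene Fcrl1 was the 1 lower member, with 36.7, 36.4 and 25.5 CPM in CD103+ and 14.46, 12.6 and 14.7 CPM in CD11b+ libraries, and Trim21, the cytosolic antibody receptor, did not pass (95% interval -0.53 to 0.08). No gene of this list had overlapping groups apart from Trim21, while over all tested genes 45.9% had groups that did not overlap.

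Complement genes followed the same side: of 19 tested, 13 were higher in CD11b+ cells and 0 lower (median 2.5). Among the receptors, C5ar1 was at 0.303, 0.416 and 1.397 CPM in CD103+ and at 198, 196 and 310.0 CPM in CD11b+ libraries (log2 difference 8.60 ± 0.60, limma, adjusted p = 0.00019, and 9.23 without CD103+ library 3), and C3ar1, the receptor of C3a, at 1.16, 2.34 and 1.18 and at 54.1, 82.1 and 58.2 CPM. Among the components, C1qb, a chain of the recognition subunit C1q, was at 2.93, 3.23 and 5.11 CPM in CD103+ and at 129, 172 and 281 CPM in CD11b+ libraries, highest in CD11b+ library 3. Properdin (Cfp), which stabilises the alternative pathway convertase, was at 167, 143 and 175 and at 853, 809.5 and 1094 CPM. C3 itself varied among the CD103+ libraries, with 3.43, 11 and 57.7 CPM against 119, 95.6 and 82 CPM in CD11b+ libraries, and did not pass (95% interval -0.25 to 6.06). It was called higher without CD103+ library 3 (log2 difference 3.98, limma, adjusted p = 0.0127) and when all 12 libraries shared the spread (limma, adjusted p = 0.0375). The membrane inhibitors Cd55 and Cd59a also did not pass (95% intervals -0.26 to 0.98 and -0.50 to 0.77).

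**Figure D3:**
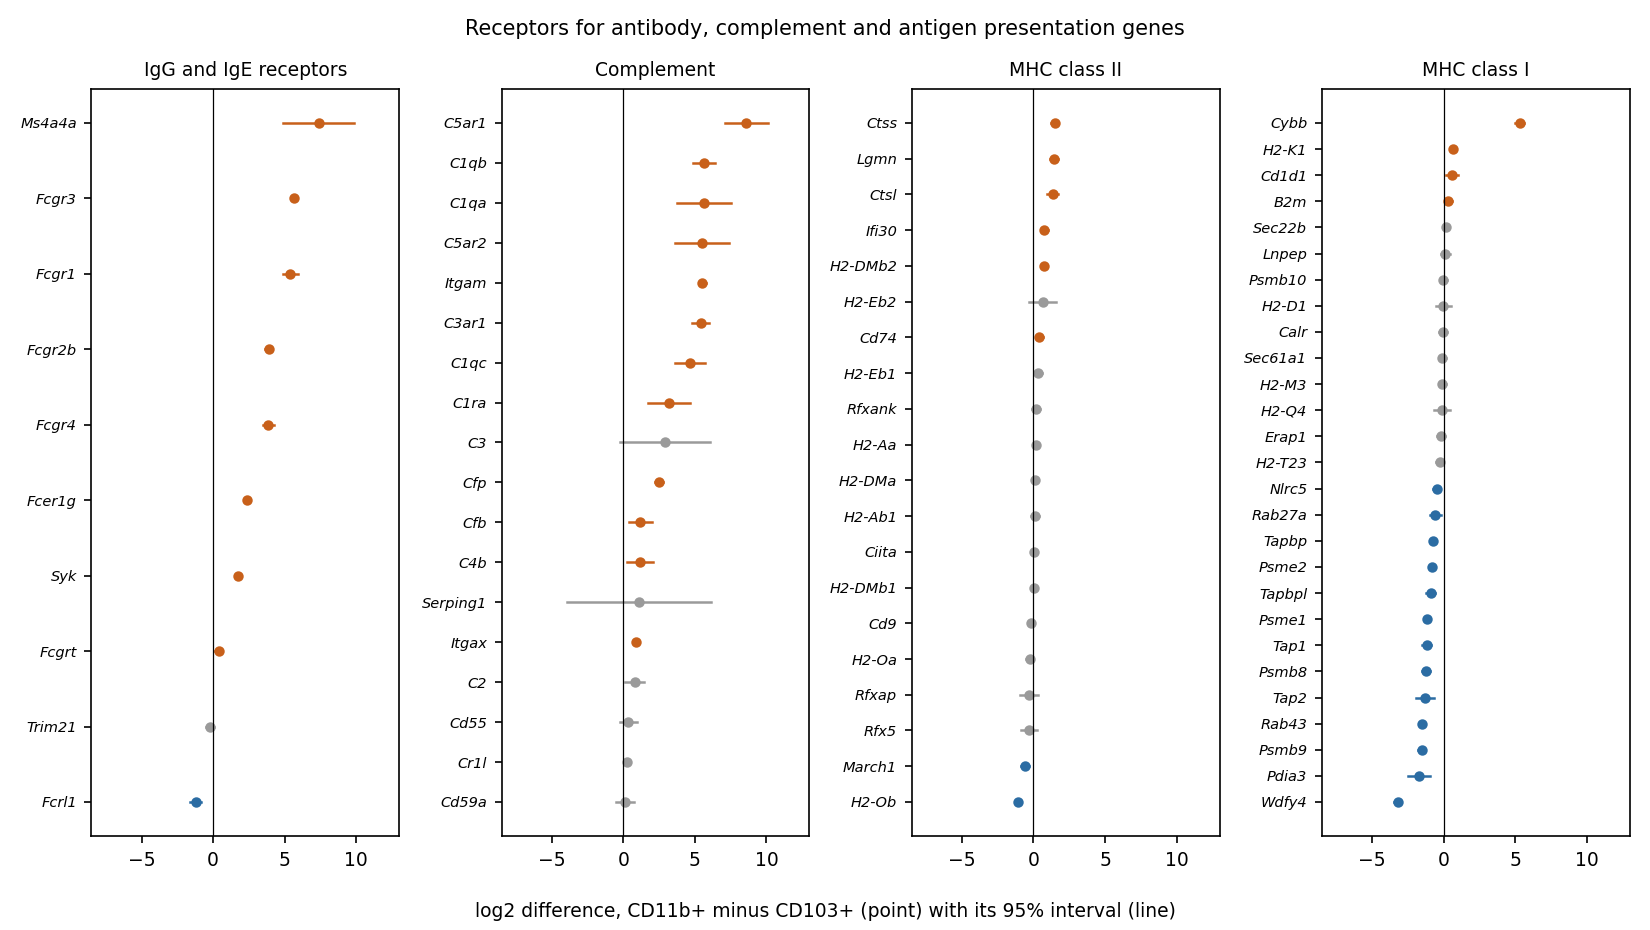
Log2 difference (CD11b+ minus CD103+, point) with its 95% interval (line) for genes of the Fc receptor, complement, MHC class II and MHC class I lists that are reported here (orange, higher in CD11b+ cells; blue, lower; grey, did not pass). The Fc receptors Fcgr3, Fcgr1, Fcgr2b and Fcgr4 lie between 3.85 and 5.66, while most class II genes lie near 0 and the immunoproteasome genes Psmb8 and Psmb9 lie below it.

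Of 14 tested CC chemokine genes CD11b+ cells had more of 8 and less of 2 (median 0.98). Ccl9 and Ccl6, ligands of CCR1 in mice, were at 3.94, 6.40 and 7.77 and 39, 55.4 and 52.9 CPM in CD103+ libraries and at 383, 406 and 478 and 402, 413 and 531 CPM in CD11b+ libraries (log2 differences 6.17 ± 0.23 and 3.20 ± 0.15). Ccl3, which also binds CCR1, was at 92.5, 76.4 and 79 and at 356, 282 and 262 CPM, and Ccl17, a ligand of CCR4, at 18.4, 10.4 and 10.6 and at 98.3, 87.7 and 115 CPM. Ccl24, which draws eosinophils, had no read in CD103+ cells and 2.07, 3.71 and 2.17 CPM in CD11b+ libraries, at least 55.1-fold higher.

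The 2 lower members were Ccl1 and Xcl1. Ccl1, the ligand of CCR8, was at 82.1, 60.3 and 45.1 CPM in CD103+ and at 2.34, 1.83 and 2.89 CPM in CD11b+ libraries (log2 difference -4.70 ± 0.24, limma, adjusted p = 3.36e-08). Xcl1, the ligand of XCR1, was at 20.4, 13.1 and 10.8 and at 3.56, 2.26 and 2.06 CPM and shares 18.7% of its exon length with another gene. Ccl4, Ccl5 and Ccl7 did not pass, with 95% intervals of 0.02 to 0.48, -0.51 to 0.34 and -0.97 to 0.04, but Ccl7 was lower when libraries were paired by number (limma, adjusted p = 0.00334).

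Of 9 tested CXC chemokine genes 5 were higher and 0 lower (median 1.34). Cxcl2, a ligand of CXCR2 that draws neutrophils, was at 3.03, 2.65 and 1.61 CPM in CD103+ and at 270.0, 242 and 303 CPM in CD11b+ libraries (log2 difference 6.83 ± 0.21, limma, adjusted p = 1.53e-09). Cxcl10, a ligand of CXCR3, was at 7.67, 11 and 9.17 and at 29.7, 25.8 and 47 CPM. Cxcl9, another but not the only other interferon-induced ligand of that receptor in the list, overlapped between the groups at 144, 184 and 123 and 127, 121 and 158 CPM (95% interval -0.48 to 0.19). Cxcl16 overlapped as well (95% interval -0.39 to 0.04).

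The receptors for these ligands were split in kind. Of 23 tested chemokine and chemoattractant receptors 13 were higher and 3 lower in CD11b+ cells (median 0.55). Ccr1 was at 7.22, 4.32 and 7.03 CPM in CD103+ and at 248, 280.4 and 309 CPM in CD11b+ libraries (log2 difference 5.52 ± 0.19, limma, adjusted p = 3.45e-09), and the decoy receptor Ccrl2 at 54.2, 55.7 and 39.4 and at 334, 343 and 322 CPM. Fpr1 had no read in CD103+ cells and 8.56, 7.20 and 15 CPM in CD11b+ libraries, at least 218-fold higher. Xcr1 was at 1249, 1166 and 953 CPM in CD103+ and at 6.11, 4.05 and 4.16 CPM in CD11b+ libraries. Cxcr3 was lower, with 186, 183 and 153 CPM in CD103+ and 22.4, 22.4 and 28 CPM in CD11b+ libraries (log2 difference -2.84 ± 0.12, limma, adjusted p = 6.36e-09). Ccr7, which leads mature dendritic cells to lymph nodes, was at 38.1, 42.9 and 39.7 and at 46.1, 41.7 and 43.5 CPM and did not pass (95% interval -0.12 to 0.36).

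Of 29 tested cytokine genes CD11b+ cells had more of 13 and less of 6 (median 0.82). Il1b was at 186, 229.5 and 269 CPM in CD103+ and at 1065, 1025 and 1272 CPM in CD11b+ libraries (log2 difference 2.31 ± 0.14, limma, adjusted p = 1.47e-07). Tnf was at 8.38, 7.54 and 7.99 and at 29.4, 26.4 and 31.6 CPM, and Osm, oncostatin M, at 0.505, 0.520 and 1.75 and at 45.1, 27 and 43.4 CPM. Il6 was low in both, at 1.31, 0.468 and 0.524 and at 4.94, 8.39 and 4.38 CPM, and lost its call when all 12 libraries shared the spread (adjusted p = 0.0676). Il23a, the specific subunit of interleukin-23, had no read in CD103+ cells and 1.06, 1.15 and 3.82 CPM in CD11b+ libraries, at least 44.6-fold higher.

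On the other side, Il12b, the subunit shared by interleukin-12 and interleukin-23, was at 31, 26.8 and 28 CPM in CD103+ and at 2.18, 3.58 and 2.21 CPM in CD11b+ libraries (log2 difference -3.45 ± 0.22, limma, adjusted p = 1.51e-07). Il18 was at 42.2, 34.6 and 33.4 and at 16.4, 18.1 and 18.1 CPM. Csf2, which encodes GM-CSF and shares 12.0% of its exon length with another gene, was at 18.6, 12.8 and 10.1 and at 2.34, 0.937 and 0.4497 CPM. The groups did not overlap for these 3 genes, which was so for 45.9% of all tested genes. Il10 overlapped between the groups (95% interval -0.22 to 0.92), and so did Flt3l, whose whole exon length overlaps another gene (95% interval -0.71 to 0.77) and Ebi3 (95% interval -0.25 to 0.34).

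Of 37 tested cytokine receptor genes 24 were higher and 4 lower in CD11b+ cells (median 0.93). Il1r2, the decoy receptor of interleukin-1, was at 7.92, 9.73 and 6.55 CPM in CD103+ and at 83.5, 81.4 and 142 CPM in CD11b+ libraries (log2 difference 3.63 ± 0.23, limma, adjusted p = 9.86e-07). Il2rg, the common gamma chain, was at 148, 135 and 141 and at 553, 521 and 583 CPM, Tgfbr1 at 36.5, 43.9 and 41.2 and at 133, 159 and 129.7 CPM, and Il17ra, a chain of the interleukin-17 receptor, at 11.1, 11.4 and 9.86 and at 37, 32.6 and 39.5 CPM. Among the lower genes was Kit, the stem cell factor receptor, at 124, 121 and 109 and 46.9, 48 and 45.8 CPM. The type I interferon receptor chains Ifnar1 and Ifnar2 did not pass (95% intervals -0.32 to 0.11 and -0.22 to 0.34), and Ifngr1 was lower by a small amount (-0.45 ± 0.12 on the log2 scale) that lost the call without CD103+ library 2 or 3 or CD11b+ library 1 (adjusted p = 0.0615, 0.0588 and 0.0504).

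Most genes of the lectin and paired receptor families were higher in CD11b+ cells. Of 27 tested C-type lectin genes 19 were higher and 6 lower (median 4.58). Clec7a, dectin-1, a receptor of fungal glucans, was at 22, 19.8 and 25.4 CPM in CD103+ and at 542, 519 and 539 CPM in CD11b+ libraries (log2 difference 4.58 ± 0.11, limma, adjusted p = 3.85e-11). Clec4n, dectin-2, was at 2.93, 1.87 and 3.14 and at 288, 289.5 and 348 CPM, and Clec5a at 2.42, 2.29 and 2.10 and at 75.1, 76.4 and 97.6 CPM. Clec10a, a close relative of Mgl2 whose reads may be split between them, was at 8.08, 7.54 and 7.68 and at 333, 275 and 252 CPM. Klra2, a Ly49-family receptor, was at 1.26, 0.832 and 0.742 and at 72.3, 79.6 and 84.5 CPM. Clec9a, at 206, 203 and 166 CPM in CD103+ and 4.25, 3.62 and 4.65 CPM in CD11b+ libraries, and Cd207, at 135, 119 and 67.9 and 0.372, 0.1704 and 0.337 CPM, were among the 6 lower.

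Of 30 tested SIRP, CD300, PIR and Siglec family genes 26 were higher and 1 lower (median 4.92). These families pair inhibitory with activating receptors, and both kinds were higher. Among inhibitory members, Pilra was at 1.31, 0.884 and 1.22 CPM in CD103+ and at 198, 199 and 254 CPM in CD11b+ libraries (log2 difference 7.55 ± 0.18, limma, adjusted p = 4e-11), and Cd300a at 49.7, 36.4 and 47.1 and at 295, 297 and 328 CPM. Among activating members, Pilrb1 was at 0.707, 0.936 and 1.18 CPM in CD103+ and at 62.5, 59 and 67.6 CPM in CD11b+ libraries, Cd300ld at 3.28, 3.38 and 3.01 and at 118, 107 and 155 CPM, and Lilra5 at 0.959, 0.416 and 0.436 and at 72.1, 84 and 95.9 CPM. Lilrb4a was at 47.9, 46.9 and 48.1 and at 1128, 1144 and 1135 CPM, but 98.9% of its exon length overlaps another gene, so its reads are uncertain, as are those of Sirpb1b and Sirpb1c, which are near copies. Cd300c was the 1 lower member, and Siglecg and Siglech did not pass (95% intervals -0.34 to 0.20 and -0.16 to 0.42).

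The sensors of microbial and nucleic acid ligands split by subset. Of 33 tested pattern recognition genes 19 were higher and 6 lower in CD11b+ cells (median 0.87). Besides Cd14, Tlr2, the receptor of bacterial lipoproteins, was at 14.8, 19.6 and 12.3 CPM in CD103+ and at 151, 169.8 and 161 CPM in CD11b+ libraries (log2 difference 3.39 ± 0.16, limma, adjusted p = 1.26e-08). The inflammasome sensors Nlrp3 and Nlrc4 were at 17.5, 16 and 15 and 3.73, 3.43 and 3.36 CPM in CD103+ libraries and at 62.2, 77.6 and 60.7 and 19.3, 18.3 and 17 CPM in CD11b+ libraries. Ddx58, which encodes the RNA sensor RIG-I, and Casp4, the sensor of cytosolic lipopolysaccharide, had log2 differences of 2.14 and 2.25. Tlr11, a profilin sensor in mice, was lower, with 333, 273 and 231 CPM in CD103+ and 29.1, 22.4 and 17.3 CPM in CD11b+ libraries. Tlr9, the adaptors Myd88 and Ticam1, and Tmem173, which encodes STING, did not pass, with 95% intervals of -0.48 to 0.57, -0.21 to 0.53, -0.43 to 0.29 and -0.12 to 0.30.

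Genes of MHC class II presentation passed about as often as all genes. Of 20 tested, 6 were higher and 2 lower in CD11b+ cells, 40.0% against 32.0% over all genes (median 0.14), and under leukocyte scaling 5 were higher and 5 lower. H2-Ab1 was at 4974, 5667 and 5571 CPM in CD103+ and at 5465, 5137 and 6871 CPM in CD11b+ libraries, with overlapping groups (95% interval -0.17 to 0.37). H2-Aa was at 15076, 14943 and 13872 and at 16337, 16640.2 and 16516 CPM (95% interval -0.04 to 0.39). Cd74, the invariant chain, was at 96557, 88560.2 and 85526 and at 120534, 118452 and 117900.0 CPM, a log2 difference of 0.40 ± 0.11 (limma, adjusted p = 0.0121) that was 0.09 under leukocyte scaling (adjusted p = 0.534) and lost the call without CD103+ library 2 or 3 (adjusted p = 0.0721 and 0.081). The antigen-processing proteases were higher: cathepsin S (Ctss) at 953, 976 and 1023 and 2491, 2837 and 2865 CPM, legumain (Lgmn) at 87.8, 88.2 and 121 and 269, 247 and 292 CPM. H2-Ob, a chain of the inhibitor of peptide loading H2-O, was lower, at 580.2, 509 and 485 and 249, 264 and 234 CPM. The ubiquitin ligase March1, which removes class II from the surface, was also lower, by -0.60 on the log2 scale.

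Genes of the class I pathway went more often the other way. Of 27 tested, 4 were higher and 13 lower in CD11b+ cells (median -0.28), and 2 were higher and 19 lower under leukocyte scaling. Without any 1 library 2 or 3 were higher. The immunoproteasome subunit Psmb9 was at 274, 256 and 244 CPM in CD103+ and at 82.9, 89 and 93.6 CPM in CD11b+ libraries (log2 difference -1.54 ± 0.10, limma, adjusted p = 1.58e-07), and Psmb8 at 265, 283 and 293 and at 118, 98 and 142 CPM. The proteasome activators Psme1 and Psme2 were lower by -1.18 and -0.80 on the log2 scale, and the peptide transporter Tap1, at 129, 163 and 161 CPM in CD103+ and 62.7, 57.3 and 80.9 CPM in CD11b+ libraries, by -1.18. The third immunoproteasome subunit, Psmb10, did not pass (95% interval -0.27 to 0.23). Of the heavy chains, which are close relatives whose reads may be split, H2-K1 was higher, at 1699, 1563 and 1575 CPM in CD103+ and 2626, 2772 and 2269 CPM in CD11b+ libraries, while H2-D1 overlapped between the groups (95% interval -0.57 to 0.51). Cybb, the catalytic subunit of the phagocyte oxidase, which is in this list because it controls phagosomal pH, was at 27.4, 22.1 and 31.6 and at 1038, 1266 and 932 CPM.

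Of 26 tested costimulation and checkpoint genes 13 were higher and 7 lower in CD11b+ cells (median 0.60). Tnfsf9, the ligand of 4-1BB, was at 54.2, 73.1 and 60.5 CPM in CD103+ and at 503, 590.3 and 477 CPM in CD11b+ libraries (log2 difference 3.07 ± 0.13, limma, adjusted p = 3.89e-09), and Cd80 at 20.8, 18.7 and 18.1 and at 77, 63.3 and 45 CPM. Btla, an inhibitory receptor, was lower, with 919, 832 and 739 CPM in CD103+ and 60.0, 55 and 53.9 CPM in CD11b+ libraries (log2 difference -3.88 ± 0.11, limma, adjusted p = 1.03e-10). The pair of Cd200 and its receptor lay on opposite sides: Cd200 was at 56.4, 48.1 and 51.6 and 17.5, 13.9 and 16.1 CPM, Cd200r1 at 24.1, 27.3 and 21 and 119, 102 and 98.3 CPM. Icosl, the ligand of ICOS, and the maturation marker Cd83 did not pass (95% intervals -0.07 to 0.41 and -0.38 to 0.21).

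Of 32 tested lysosomal genes 20 were higher and 2 lower in CD11b+ cells (median 0.85). Ctsa, cathepsin A, was at 86.8, 91.1 and 95.4 CPM in CD103+ and at 575, 711 and 805 CPM in CD11b+ libraries (log2 difference 2.92 ± 0.12, limma, adjusted p = 4.37e-09), and Ctsc, which activates serine proteases of granules, at 683, 634 and 662 and at 1402, 1409 and 1395 CPM. Ctse was lower, at 314, 325 and 299 and 115, 121 and 126 CPM. Psap, the precursor of the saposins, was at 6767, 4438 and 4205 CPM in CD103+ and at 2317, 3414 and 2513 CPM in CD11b+ libraries, a difference whose adjusted p in limma's test (0.0102) rose to 0.0888 without CD11b+ library 3. Grn, Lipa and Npc2 did not pass, with 95% intervals of -0.21 to 0.36, -0.42 to 0.03 and -0.40 to 0.04.

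Of 31 tested genes of proteases, matrix and repair 24 were higher and 2 lower (median 2.01). Fn1 was at 0.404, 0.468 and 0.829 CPM in CD103+ and at 133, 146 and 125 CPM in CD11b+ libraries, and Thbs1, thrombospondin, at 4.59, 1.25 and 1.75 and at 68, 52.5 and 67.3 CPM. Mmp8 had 2 reads in the CD103+ group and 2411 in the CD11b+ group, a depth-scaled ratio of 1083 (95% counting interval 299 to 8945). The metalloprotease Adam19 was lower, at 102, 122 and 125 and 49.4, 51.2 and 39.9 CPM. Spp1, osteopontin, which injured tubule cells also make, ranged from 212 to 918 CPM among CD103+ and from 414 to 1311 CPM among CD11b+ libraries and did not pass, but was higher when libraries were paired by number (limma, adjusted p = 0.000117).

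Crescents contain fibrin, and the clotting genes were therefore listed. Of 22 tested, 11 were higher and 2 lower in CD11b+ cells (median 1.16). Plaur, the urokinase receptor, was at 57.6, 55.5 and 57.7 CPM in CD103+ and at 1057, 989.6 and 796 CPM in CD11b+ libraries (log2 difference 4.05 ± 0.11, limma, adjusted p = 1.26e-10). F10, coagulation factor X, was at 0.0505, 0.208 and 0.0873 and at 25.8, 39.6 and 41.6 CPM, and F13a1, which cross-links fibrin, at 2.17, 1.25 and 1.09 and at 90.6, 98.5 and 75 CPM. Procr, the protein C receptor, was lower, at 16.9, 13.1 and 17.7 and 5.63, 6.26 and 7.34 CPM. F3, tissue factor, was low in both and did not pass (95% interval -0.66 to 2.01).

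Of 25 tested scavenger and dead-cell receptors 15 were higher and 4 lower (median 1.13). Axl, a receptor of phosphatidylserine bridges, was at 4.24, 4.94 and 4.76 CPM in CD103+ and at 114, 129 and 139.7 CPM in CD11b+ libraries (log2 difference 4.77 ± 0.13, limma, adjusted p = 1.25e-10). Msr1, scavenger receptor A, was at 0.404, 0.884 and 0.524 and at 68.2, 68.7 and 75.3 CPM, and Mfge8, a bridge to dead cells, at 22, 21.6 and 24.2 and at 104, 107 and 112 CPM. Cd36, a receptor of oxidised lipids and dead cells, was lower, with 3113, 2634 and 2358 CPM in CD103+ and 368, 375 and 394 CPM in CD11b+ libraries (log2 difference -2.82 ± 0.11, limma, adjusted p = 3.21e-09). Of 21 tested iron and haem genes 15 were higher and 0 lower (median 0.68). Slc11a1, the phagosomal metal exporter NRAMP1, was at 18.5, 19.9 and 12.6 and at 96.9, 118 and 126 CPM. Cd163, the haemoglobin-haptoglobin receptor, was at 0.908, 1.56 and 1.35 and at 24.7, 33.7 and 19.97 CPM, and Bach1, a haem-sensing repressor, at 17.8, 21.1 and 19.2 and at 59.4, 56.5 and 45.5 CPM. Tfrc, the transferrin receptor, did not pass (95% interval -0.29 to 0.35).

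Of 23 tested eicosanoid genes 11 were higher and 3 lower (median 0.70). Ptgs2, cyclooxygenase 2, was at 6.36, 11.1 and 10.2 CPM in CD103+ and at 140.4, 105 and 129 CPM in CD11b+ libraries (log2 difference 3.78 ± 0.20, limma, adjusted p = 1.75e-07). Pla2g7, which inactivates platelet-activating factor, was at 9.89, 14 and 19.2 and at 231, 323 and 405 CPM, while Ptafr, the receptor of that lipid, was at 273, 216 and 161 and at 1601, 1383 and 1083 CPM. The prostaglandin receptors diverged: Ptgir was higher, at 2.88, 1.56 and 3.84 and 42, 41.6 and 28.6 CPM, and Ptger2 lower, at 21.5, 19.9 and 21.3 and 3.56, 4.39 and 5.32 CPM. Tbxas1, thromboxane synthase, was lower by -0.69 on the log2 scale.

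Cell cycle genes were lower in CD11b+ cells without an exception in mitosis. All 26 tested mitosis genes were lower (median -1.18), and 26 remained so under leukocyte scaling and 23 when all 12 libraries shared the spread. Mki67, which marks cycling cells, was at 152, 145 and 136 CPM in CD103+ and at 68.4, 77.6 and 77 CPM in CD11b+ libraries (log2 difference -0.96 ± 0.10, limma, adjusted p = 1.27e-05). Top2a was at 333, 312 and 325 and at 146, 151 and 133 CPM, and the kinase Cdk1 at 72.6, 61.1 and 57.9 and at 20.1, 26.1 and 22.3 CPM. Of 31 tested DNA replication genes 23 were lower and 0 higher (median -0.59), but 12 were lower when all 12 libraries shared the spread. Rrm1, a subunit of ribonucleotide reductase, was at 249, 212 and 220.0 and at 126, 127 and 122 CPM. Tk1, E2f2 and Gins1 did not pass, with 95% intervals of -0.40 to 0.29, -0.16 to 0.39 and -0.60 to 0.20.

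Genes of glycolysis, the respiratory chain and the unfolded protein response passed at shares of 36.4%, 20% and 33.3%, against 32.0% over all genes. Of 22 tested glycolysis genes 5 were higher and 3 lower, of 25 respiratory chain genes 0 were higher and 5 lower, and of 24 genes of the unfolded protein response 4 were higher and 4 lower. Under leukocyte scaling 9, 18 and 15 of them were lower, so their direction rests on the scaling. Leaving out any 1 library gave 3 to 7 lower respiratory and 2 to 7 lower unfolded protein genes, and 9 of the latter were lower when libraries were paired by number. Eno1 was at 57.9, 52.5 and 51.4 CPM in CD103+ and at 116, 107 and 121 CPM in CD11b+ libraries (log2 difference 1.08 ± 0.10, limma, adjusted p = 5.2e-06). Pfkp was lower, at 447, 461 and 429.8 and 258, 258 and 270.4 CPM. The mitochondrially encoded mt-Nd1 and mt-Co1 overlapped between the groups (95% intervals -0.25 to 0.42 and -0.34 to 0.26), as did Aldoa (95% interval -0.16 to 0.27).

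Of 26 tested NF-kB pathway genes 17 were higher and 0 lower in CD11b+ cells (median 0.67). The inhibitors that the pathway itself induces were among them: Nfkbiz at 34.8, 42.3 and 51.3 CPM in CD103+ and 230.0, 256 and 225 CPM in CD11b+ libraries, Nfkbia at 135, 157 and 144 and 349.5, 334 and 342 CPM, and Tnfaip3, which encodes A20, at 106, 109.6 and 115 and 247, 259 and 249.97 CPM. Tnip3, a partner of A20, had the largest difference among the 8 listed members with the smallest adjusted p, 4.83 ± 0.24 on the log2 scale (limma, adjusted p = 2.26e-06). The subunits Rela and Rel did not pass (95% intervals 0.00 to 0.48 and -1.31 to 0.67).

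Of 25 tested immediate-early and heat shock genes 12 were higher and 2 lower (median 0.38). Zfp36, tristetraprolin, which destabilises cytokine mRNA, was at 1164, 1422 and 1304 and at 2789, 2606 and 2591 CPM, and Egr1 at 123, 178 and 139.7 and at 332, 475 and 371 CPM. Fos overlapped between the groups at 2514, 3073 and 2816 and 2592, 3242 and 2510.1 CPM (95% interval -0.28 to 0.26), and Nr4a2 was lower, at 160.3, 188 and 186 and 71.1, 70.2 and 45.9 CPM.

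Interferon-induced genes did not move as a block. Of 29 tested type I interferon-stimulated genes 11 were higher and 7 lower (median 0.20). Ifitm3, which restricts virus entry, was at 53.7, 46.9 and 62.5 CPM in CD103+ and at 432, 389 and 488 CPM in CD11b+ libraries (log2 difference 3.01 ± 0.13, limma, adjusted p = 4.25e-09), and Oas2 at 1.06, 0.572 and 1.88 and at 29.4, 32.1 and 32 CPM. The signalling factor Stat2 was lower, at 141, 138 and 131 and 62.2, 57.2 and 58.1 CPM, as were Mx1 and Ifi44, by -1.12 and -1.14 on the log2 scale. Ifit3, Rsad2 and Cmpk2 did not pass (95% intervals -0.49 to 0.82, -0.55 to 0.88 and -0.71 to 0.73). Of 15 tested interferon-gamma GTPases 10 were higher and 1 lower (median 1.03), among them Gbp7 at 51.1, 49 and 51.5 and 167, 152 and 152 CPM. Irgm1 and Iigp1 did not pass (95% intervals -0.44 to 0.01 and -1.14 to -0.09), but Iigp1 was lower when libraries were paired by number (limma, adjusted p = 0.0137).

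The subset difference was then set against that in healthy kidneys, in limma with all 12 libraries. It differed between the states for 4841 of 12720 genes (38.1%), 2324 upward and 2517 downward, so 48.0% of the calls were upward (median -0.12). With leukocyte scaling 5921 were upward and 194 downward, 96.8% upward, and the median was 1.06. Tubule genes moved with this contrast: their sum was 39530 to 62767 CPM in healthy CD103+, 9295 to 22906 in healthy CD11b+ and 4195 to 6998 in all nephritic libraries, and 16 of 19 tubule genes differed upward. Lymphocyte genes moved as well. T cell genes summed to 222 to 370.3 CPM in healthy and 671 to 806 CPM in nephritic CD103+ libraries, and to 1010.0 to 1335 and 772 to 888 CPM in CD11b+ libraries. Of 20 T cell genes 20 differed downward, and 5 under leukocyte scaling. Of 14 NK and innate lymphoid genes 12 differed downward and 1 upward, and 7 and 1 under leukocyte scaling. The part of tubule and lymphocyte RNA in the contrast was not tested.

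Macrophage genes separated the subsets more in nephritis. Of 19 tested, the difference was larger in nephritis for 13 and smaller for 1 (median 1.66), and for 15 and 0 under leukocyte scaling. Mmp12 had a log2 difference of 4.75 ± 0.24 (SE) in healthy kidneys, a change of 2.56 ± 0.34 (limma, adjusted p = 0.00028) that was 3.73 under leukocyte scaling. Spic had a change of 4.80 ± 1.29 (limma, adjusted p = 0.0107), a fitted value that rests on 1 read in nephritic and 7 in healthy CD103+ libraries and was 5.98 under leukocyte scaling, and Cd14 one of 1.38 ± 0.43 (limma, adjusted p = 0.022) that was 2.55 under leukocyte scaling. For the Fc receptors Fcgr1, Fcgr2b, Fcgr3 and Fcgr4 the change was -0.30 ± 0.97, 0.09 ± 0.24, 0.28 ± 0.26 and 0.40 ± 0.46, none of which passed with the deposited scaling, whereas Fcgr2b, Fcgr3 and Fcgr4 passed under leukocyte scaling at 1.26, 1.45 and 1.57.

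On the CD103+ side, Tlr3 changed by -2.31 ± 0.32 (limma, adjusted p = 0.000316) and by -1.14 under leukocyte scaling. Of 26 mitosis genes 24 changed downward and 0 upward (median -2.02), and 9 and 0 under leukocyte scaling (median -0.84). Mki67 changed by -1.97 ± 0.31 (limma, adjusted p = 0.000574), and by -0.80 with an adjusted p of 0.0477 under leukocyte scaling. For MHC class II genes the direction turned with the scaling: 2 of 20 changed upward and 13 downward with the deposited scaling, and 3 and 0 under leukocyte scaling. H2-Ab1 changed by -1.57 ± 0.34 (limma, adjusted p = 0.00334) and by -0.40 (adjusted p = 0.0929) under leukocyte scaling.

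**Figure D4:**
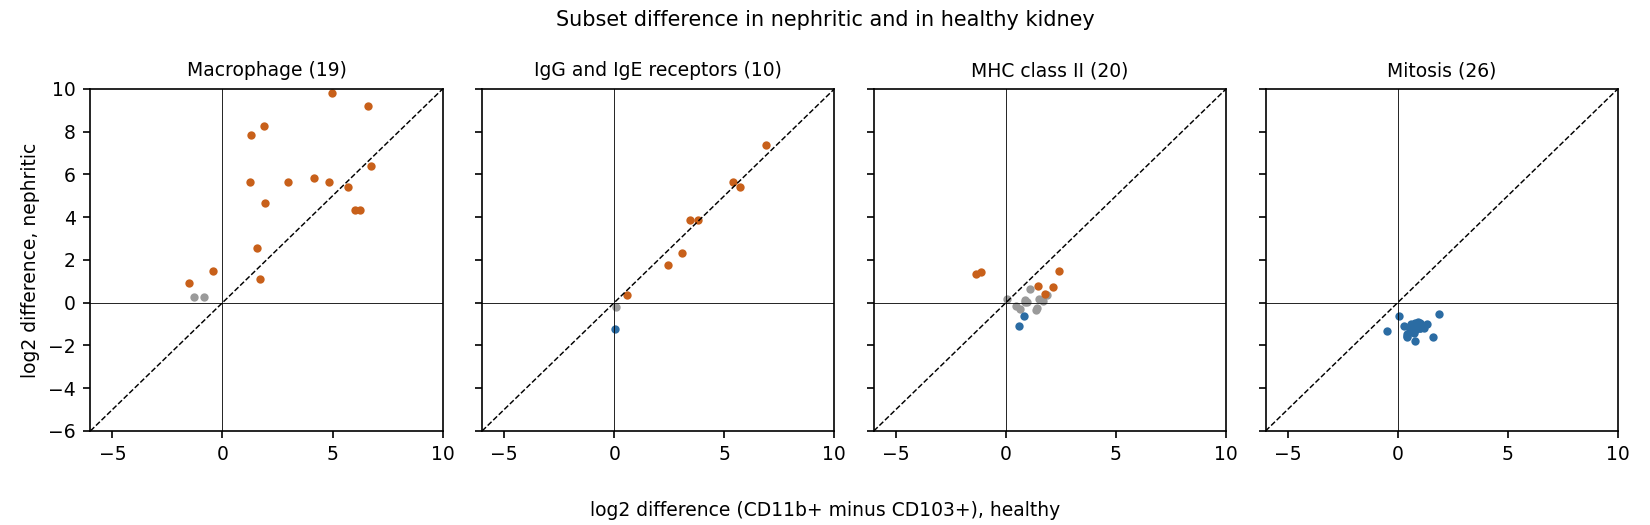
Log2 difference (CD11b+ minus CD103+) in healthy kidneys (x axis) and in nephritic kidneys (y axis) for 19 macrophage, 10 Fc receptor, 20 MHC class II and 26 mitosis genes, deposited scaling, with a dashed line where both are equal and the call in nephritis in colour (orange, higher in CD11b+ cells; blue, lower; grey, did not pass). Most macrophage genes lie above the line and most mitosis genes below it, and Fcgr1, Fcgr2b, Fcgr3 and Fcgr4 lie close to it, although Fcgr2b, Fcgr3 and Fcgr4 lie above it under leukocyte scaling.

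Most tested genes did not pass in nephritis, which does not show that they were equal. Of the 8647 that did not, 6515 had a 95% interval of the difference within 2-fold in either direction. Among those named above, this holds for H2-Ab1, H2-Aa, Ciita, Ccr7, Fos, Tmem173, Icosl, Ifnar1 and Grn, whereas C3, F3, Spp1 and Umod varied too much between libraries for such a bound. The 95% intervals of Spp1 and Umod ran from -1.2 to 2.92 and from -1.48 to 1.93 on the log2 scale.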

How the data were processed

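RNA of sorted CD11b+ and CD103+ kidney cells was sequenced. The deposited log2 values are 1 table of 26281 lines; the submitters' processing notes name edgeR, featureCounts 1.4.5, Subread and STAR 2.0.4b without saying what each did. The authors' genome build was not given in the sources used here. After 160 repeated lines were dropped 26121 genes remained. In each library the values gave back whole reads for 100% of genes within 0.05 with an offset of 0.5 reads. CPM are those reads per scaled library (scaling factors of 0.921 to 1.005 in the nephritic libraries). IDs of 26022 genes matched GENCODE M21 (GRCm38), which gave coordinates and 27 symbols. The kit does not mark strand, so reads of overlapping genes cannot be told apart. Read counts of replicates differed well beyond sampling noise (chi-square per degree of freedom 18.2 to 42.8), so none was counted as a duplicate.

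The deposited log2 values of the 6 nephritic libraries were fitted with limma 3.58.1 (R 4.3.3; trended, robust empirical Bayes; two-sided; Benjamini-Hochberg over 12720 genes; threshold 0.05), and 13401 genes under the filter were not tested. The difference between nephritis and health was a contrast over all 12 libraries. Replicates are separate mice per the labels. Both sorts came from each mouse, and libraries with the same number deviated together (correlations of 0.140, 0.169 and 0.267 over 7790 genes, against -0.207 to 0.028 for other pairs), which by the rule used here (each over 0.1) pairs them; the labels do not say that the number marks a mouse. The paired fit lost no call of a named gene, and it is an alternative. Alternatives changed the filter, the scaling (median, quantile, or 15 leukocyte genes), the weights, the spread, the pseudocount (1 or 4 CPM) and the test (voom on the recovered reads), or left out 1 library. Intervals of read ratios and floors of 3 reads cover counting error only. Named genes were the 5 markers, the label genes, the 12 largest log2 and 10 largest CPM differences each way with at least 10 CPM, up to 8 members with the smallest adjusted p and the most abundant member of each of 48 lists with members that did not pass, and the 6 largest changes between states each way. Genes ranked by log2, by CPM or by change between states also had to pass limma's test in nephritis with groups that did not overlap. The markers, the lists (1054 genes, 1043 found) and these rules were chosen with earlier results of these data known, and Ly6g, Marco, Mcpt4, Tpsb2 and Nphs1 were named after their values were seen. Values of a few genes covered by these rules are not reported here. List medians did not move when genes without reads in 1 group were set at their bound. Scripts were tested on simulated data. Promoters came from a RefSeq table of GRCm38.p6 that holds 9465 of the tested genes.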

Additional observations from a re-analysis of the deposited data

Results flagged for a closer look

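For the genes below the subset difference itself differed between nephritic and healthy kidneys by amounts among the largest in each direction (limma, all 12 libraries, change in log2 difference ± SE). Upward, in favour of CD11b+ cells in nephritis, were Abcc3 (an exporter of conjugates) at 6.75 ± 1.48 (adjusted p = 0.00354), Flrt3 (an adhesion protein) at 6.58 ± 1.09 (adjusted p = 0.000817), Stab1 (a scavenger receptor) at 6.09 ± 1.09 (adjusted p = 0.00118), F10 at 5.80 ± 1.0 (adjusted p = 0.000938) and Rai14 (an actin-binding protein) at 5.66 ± 0.59 (adjusted p = 0.0001). Fitted values of genes with few reads in a group, such as F10 with 7 over the nephritic CD103+ libraries, depend on the offset of 0.5 reads. All 5 stayed past the threshold under leukocyte scaling, at 6.84 to 7.92. In nephritic kidneys the differences of Abcc3, Flrt3, Stab1 and Rai14 were 6.10, 4.42, 5.45 and 4.04, smaller than their changes. With the deposited scaling their fitted differences therefore had the opposite sign in healthy kidneys, whereas F10, at 8.13 in nephritis, kept its sign.

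Downward were Csf2 at -5.92 ± 1.57 (adjusted p = 0.0103), Xcl1 at -4.91 ± 0.63 (adjusted p = 0.000216), Emilin2 (a matrix protein) at -4.80 ± 0.82 (adjusted p = 0.000949), Cyp8b1 at -4.76 ± 1.04 (adjusted p = 0.00425), Gcsam at -4.35 ± 0.66 (adjusted p = 0.000604) and Gpr33 (an orphan receptor) at -4.25 ± 1.30 (adjusted p = 0.0205). Emilin2 was higher in CD11b+ cells in both states, by 7.81 in healthy and 3.01 in nephritic kidneys on the log2 scale. Csf2 and Xcl1 were at -3.72 and -2.47 in nephritis, smaller in size than their changes, so their fitted differences had the opposite sign in healthy kidneys. Those of Cyp8b1, Gcsam and Gpr33, at -9.03, -8.64 and -8.45 in nephritis, kept their sign. Under leukocyte scaling the changes were -4.75 to -3.08, and Gpr33 no longer passed (adjusted p = 0.0533), nor did it without nephritic CD103+ library 1 or healthy CD103+ library 2 (adjusted p = 0.0502 and 0.0518). Leaving out 1 library moved Csf2 to -7.01 (without healthy CD103+ library 3) or -4.32 (without healthy CD103+ library 2), Cyp8b1 to -3.59 (without nephritic CD11b+ library 3) and Abcc3 to 5.34 (without nephritic CD103+ library 3). Over the 11 genes the extremes without 1 library were 4.78 to 7.59 upward and -7.01 to -3.23 downward. Tubule genes, which were higher in healthy CD103+ libraries, and T cell and NK cell genes, of which 20 of 20 and 12 of 14 differed downward, move with this contrast, and their part was not tested.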

How the results depend on the processing

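With all 12 libraries sharing the spread 2534 genes passed (1354 higher, 1180 lower). With leukocyte scaling 6172 passed (1315 higher, 4857 lower). The replicate block, which pairs libraries by number, gave 4524 (2320 higher, 2204 lower) and 4103 for the change between states, and lost 0 and gained 47 calls of genes that the naming rule covers, of which those described above are given there. Leaving out 1 library at a time gave 3199 to 3896 genes (1646 to 1941 higher, 1553 to 1955 lower) and 3966 to 5741 for the change between states. Without a filter 3601 of 26121 passed, at 5 CPM or more 3666 of 9523, after median centring 4185, after quantile normalization 4205, with array weights 4467, with pseudocounts of 1 and 4 CPM 4202 and 4228, and with voom on recovered reads 4144. The change between states passed for 5022 genes with the filter over 12 libraries, 4886 after median centring and 6115 with leukocyte scaling. Of 331 named genes called, 31 lost the call in at least 1 alternative, 20 of them without 1 library, and 0 reversed. The call was lost for 26 with all 12 libraries and for 14 with leukocyte scaling. Leukocyte scaling also gave a call to 90 genes of the naming rule that did not pass with the deposited scaling, more than any other setting. Among them, as lower in CD11b+ cells, were Cxcl9, Cxcl16, Cd83, Ifnar1, Fli1, Lipa, Trim21 and Ccl7. Genes with fewer than 3 reads in a group have only a lower bound or a ratio with a wide counting interval.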

Other observations

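Receptors of lipids, nucleotides and other small ligands also divided the subsets. Of 37 tested G-protein coupled receptor genes 16 were higher and 11 lower in CD11b+ cells (median 0.41, against 0.00 over all genes tested). The share that passed was 73.0%, against 32.0% over all tested genes. P2ry14, the receptor of UDP-glucose, was at 119, 137 and 128 CPM in CD103+ and at 11.1, 11.2 and 16.7 CPM in CD11b+ libraries (log2 difference -3.32 ± 0.16, limma, adjusted p = 1.47e-08). Ffar4, a receptor of long-chain fatty acids, was at 17.7, 19.6 and 18.3 and at 1.17, 1.62 and 1.95 CPM. The adenosine receptors lay on opposite sides, with Adora3 at 44.9, 41.5 and 27.9 CPM in CD103+ and 8.08, 9.71 and 9.03 CPM in CD11b+ libraries and Adora2b at 1.11, 1.196 and 1.48 and 7.65, 7.92 and 10.9 CPM. Gpr171 was lower in CD11b+ cells, at 1092, 1238 and 1005 and 555, 504 and 433 CPM, and P2ry6 and P2ry12 overlapped between the groups (95% intervals -0.05 to 0.38 and -0.20 to 0.56).

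Of 31 tested genes of cholesterol and lipid handling 12 were higher and 6 lower in CD11b+ cells (median 0.30). Lpl, lipoprotein lipase, was at 29.8, 36.8 and 19.5 CPM in CD103+ and at 207, 231 and 236 CPM in CD11b+ libraries (log2 difference 3.01 ± 0.21, limma, adjusted p = 5.79e-06). Plin2, a lipid droplet coat protein, was lower, at 371, 347 and 365 and 195, 197 and 261 CPM. The sterol synthesis genes Sqle, Hmgcs1, Fdps and Lss did not pass (95% intervals -0.03 to 0.49, -0.19 to 0.60, -0.62 to 0.20 and -0.87 to 1.24). Among 24 tested integrin and adhesion genes 8 were higher and 6 lower (median 0.31). Itga8, an integrin alpha chain better known from mesangial cells, was at 31.1, 32 and 26.8 CPM in CD103+ and at 1.97, 2.002 and 1.87 CPM in CD11b+ libraries (log2 difference -3.92 ± 0.18, limma, adjusted p = 8.85e-09). The common leukocyte beta chain Itgb2 overlapped between the groups (95% interval -0.05 to 0.43).

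Of 25 tested genes of oxidant production and defence 11 were higher and 4 lower in CD11b+ cells (median 0.23). Slc7a11, the cystine importer, was at 0.808, 1.04 and 0.306 CPM in CD103+ and at 22.9, 23 and 27.2 CPM in CD11b+ libraries (log2 difference 5.20 ± 0.38, limma, adjusted p = 1.2e-06). Sod1, the cytosolic superoxide dismutase, was lower, at 1269, 1286 and 1369 and 559, 490.1 and 566 CPM, while the mitochondrial enzyme Sod2 overlapped between the groups (95% interval -0.10 to 0.39).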
